A study of Mus musculus with 6 samples.

Results

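The Gimap genes encode GTPases of immunity-associated proteins, and this account follows all 8 mouse members listed in the deposited tables, namely Gimap1, Gimap3, Gimap4, Gimap5, Gimap6, Gimap7, Gimap8 and Gimap9, among 27998 genes. They were taken by symbol, and they had been picked because they differed between organs in these same libraries. The cells were invariant natural killer T (iNKT) cells, T cells that recognise lipids presented by CD1d, from wild-type (WT) C57BL/6 mice aged 5 weeks. Liver, spleen and lymph node (LN) each gave 2 libraries, so n = 2 per organ. In all organs CD8+ and B220+ cells had been depleted before sorting on TCR-β and a CD1d tetramer, and no treatment, transgene or deletion was involved. The study's methods describe the 2 libraries of an organ as biological repeats, and the labels do not give the number or the sex of mice behind a library.

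GIMAP proteins are small GTPases found mainly in lymphocytes, where they sit on the membranes of lysosomes, mitochondria and other compartments. The family is best known for keeping resting T cells alive. Loss of Gimap5 causes lymphopenia in mice and rats, Gimap1 is needed by mature T and B cells, Gimap3 is a close relative of Gimap5, and Gimap4 has been linked to T cell apoptosis. Gimap6 binds a GABARAP protein of the autophagy machinery, Gimap7 pairs with other family members and stimulates GTP hydrolysis, and less is known of Gimap8 and Gimap9.

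The 6 libraries held 16587 cell barcodes, of which 16532 were kept as cells, and between 4768016 and 11086603 unique molecular identifiers (UMIs, each standing for 1 captured RNA molecule). Liver cells were the deepest, with medians of 3592 and 2880 UMIs, against 1724 and 1554 in spleen and 1730.5 and 1470 in LN. The median mitochondrial share of a cell was lowest in liver (2.73% and 2.79%), with 4.07% and 4.68% in spleen and 4.53% and 5.13% in LN. T cell genes summed to 4495 to 5665 counts per 1000000 (CPM), whereas B cell genes reached at most 21.0 and hepatocyte genes 4.01 CPM. Myeloid genes summed to 3.04 to 27.7 CPM in 5 libraries and to 124 CPM in the second LN library. Endothelial genes summed to 25.1 and 29.8 CPM in liver, 42.2 and 40.8 CPM in spleen and 62.5 and 65.6 CPM in LN. Most of these UMIs were of Pecam1, at 146 to 197 per library. Stab2 had 37 and 57 UMIs in the LN libraries and at most 2 in any other library. Kdr, Cdh5 and Clec4g had 0 UMIs in both LN libraries. Erythroid genes summed to 551 and 856 CPM in liver and to at most 0.276 CPM elsewhere. Liver and spleen libraries held Xist RNA (5401 to 10404 UMIs) and no Y-linked UMI, and LN libraries held 1362 and 1579 Y-linked UMIs and no Xist, so for every Gimap gene LN cannot be told apart from the sex of the mice. Pairs of libraries shared 6 to 20 cell barcodes.

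All members lie together on mouse chromosome 6 within 123618 bases (GRCm38, GENCODE vM21), and all are protein coding. In order of coordinate they are Gimap8 (ENSMUSG00000064262, chr6:48647234-48660875, plus strand), Gimap9 (ENSMUSG00000051124, chr6:48676129-48679114, plus), Gimap4 (ENSMUSG00000054435, chr6:48684549-48692060, plus) and Gimap6 (ENSMUSG00000047867, chr6:48701582-48708225, minus). Gimap7 (ENSMUSG00000043931, chr6:48718621-48724636, plus), Gimap1 (ENSMUSG00000090019, chr6:48739054-48743795, plus), Gimap5 (ENSMUSG00000043505, chr6:48746197-48754210, plus) and Gimap3 (ENSMUSG00000039264, chr6:48764464-48770851, minus) follow. Gimap3 and Gimap5 transcripts shared 190 stretches of 50 bases, which is 7.52% of those in Gimap3 and 4.53% of those in Gimap5, and how many reads fall in these stretches or map to both genes was not tested, so both counts are uncertain to that extent. No other pair of members shared a stretch of 50 bases. A read-through gene model, Gm28053, overlaps Gimap7, Gimap1 and Gimap5, and held 94 UMIs over all libraries against 12859 for Gimap7.

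The promoters of 3 members are shown because these genes turned out to have the largest (Gimap7), the second largest (Gimap3) and the smallest (Gimap1) difference between liver and LN. Each runs from 250 bases before to 50 bases after the annotated start, 5′ to 3′ on the strand of the gene, from the RefSeq table of build GRCm38.p6, which held 9 promoters for the 8 members (Gimap8 has 2 starts). Capitals mark matches on either strand to CACCC (the core letters read by Krüppel-like factors), GTAAACA (forkhead factors) or TGTGGT (Runx factors). A match on the other strand reads GGGTG for the first of these motifs and ACCACA for the last. The Gimap7 promoter is chr6:48718371-48718670 (plus strand), that of Gimap3 is chr6:48770802-48771101 (minus) and that of Gimap1 is chr6:48738797-48739096 (plus).
Gimap7: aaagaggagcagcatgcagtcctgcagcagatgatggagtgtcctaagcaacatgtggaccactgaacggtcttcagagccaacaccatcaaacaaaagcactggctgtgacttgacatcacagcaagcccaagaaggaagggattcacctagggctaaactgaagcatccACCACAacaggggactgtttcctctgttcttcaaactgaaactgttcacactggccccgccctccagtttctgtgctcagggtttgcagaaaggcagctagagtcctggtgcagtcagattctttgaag
Gimap3: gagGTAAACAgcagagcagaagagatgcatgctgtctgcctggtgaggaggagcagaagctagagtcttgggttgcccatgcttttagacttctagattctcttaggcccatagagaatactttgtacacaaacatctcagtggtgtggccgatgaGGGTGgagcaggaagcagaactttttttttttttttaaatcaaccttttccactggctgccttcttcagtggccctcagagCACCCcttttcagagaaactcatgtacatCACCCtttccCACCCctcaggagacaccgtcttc
Gimap1: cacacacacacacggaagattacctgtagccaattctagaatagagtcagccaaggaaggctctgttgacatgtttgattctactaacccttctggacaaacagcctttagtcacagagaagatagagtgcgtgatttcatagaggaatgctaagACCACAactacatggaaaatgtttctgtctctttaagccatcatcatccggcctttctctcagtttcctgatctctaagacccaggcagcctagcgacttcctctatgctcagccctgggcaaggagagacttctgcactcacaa

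CACCC was found in 6 of the 9 member promoters, covering 5 members, against 57.5% of all 32851 promoters of the same length. Gimap3 held 4 matches and Gimap7 and Gimap1 none, like Gimap6. TGTGGT was found in the promoters of 3 members, Gimap4, Gimap7 and Gimap1, against 16.8% of all promoters. GTAAACA was found in 1, that of Gimap3, against 3.65% of all promoters, and CCGGAA, a form of the site read by Ets factors, in none, against 14.9%. Other forms of the Ets site were not searched. Matches to different motifs did not overlap in any member. These are matches of letters only.

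In summed libraries the family took a smaller share of the transcriptome in LN than in liver or spleen. The 8 genes summed to 6854 and 7367 CPM in the liver libraries, 6482 and 5952 CPM in spleen and 2505 and 2321 CPM in LN, where CPM was computed with ribosomal and haemoglobin genes left out and libraries scaled with TMM. Behind these sums were 51365 and 45574 family UMIs from liver, 24967 and 20727 from spleen and 9235 and 8443 from LN. Both LN libraries lay under all others, the spleen libraries lay just under the liver ones, and libraries of different organs did not overlap. In such sums, fewer cells of a type and less RNA per cell cannot be told apart.

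Among the members known for lymphocyte survival, Gimap5 stood at 376 and 402 CPM in liver, 343 and 344 CPM in spleen and 150 and 129 CPM in LN. Gimap1 stood at 885 and 865 CPM in liver, 913 and 853 CPM in spleen and 502 and 478 CPM in LN. Gimap1 thus overlapped between liver and spleen, Gimap5 did not but its liver and spleen values lay close, and both were lowest in each LN library. Gimap3 stood at 1191 and 1210 CPM in liver, 692 and 648 CPM in spleen and 290 and 288 CPM in LN. Gimap3 therefore fell in a stepwise order, with gaps between organs far wider than those between the 2 libraries of an organ. Gimap4 stood at 2137 and 2409 CPM in liver, 2368 and 2213 CPM in spleen and 804 and 742 CPM in LN, with liver and spleen overlapping.

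Gimap6, the autophagy-linked member, stood at 1158 and 1190 CPM in liver, 1248 and 1086 CPM in spleen and 493 and 418 CPM in LN. Gimap7 stood at 633 and 742 CPM in liver, 462 and 389 CPM in spleen and 53.4 and 53.3 CPM in LN. Gimap6 overlapped between liver and spleen, while Gimap7 was ordered liver over spleen over LN without overlap and was the member nearest to absence in LN, at 194 UMIs in the second library. Gimap8 stood at 155 and 166 CPM in liver, 124 and 113 CPM in spleen and 65.9 and 63.8 CPM in LN. Gimap9 stood at 319 and 382 CPM in liver, 332 and 305 CPM in spleen and 147 and 148 CPM in LN. Gimap8 kept the 3 organs apart, and Gimap9 did so for LN only.

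**Figure D1:**
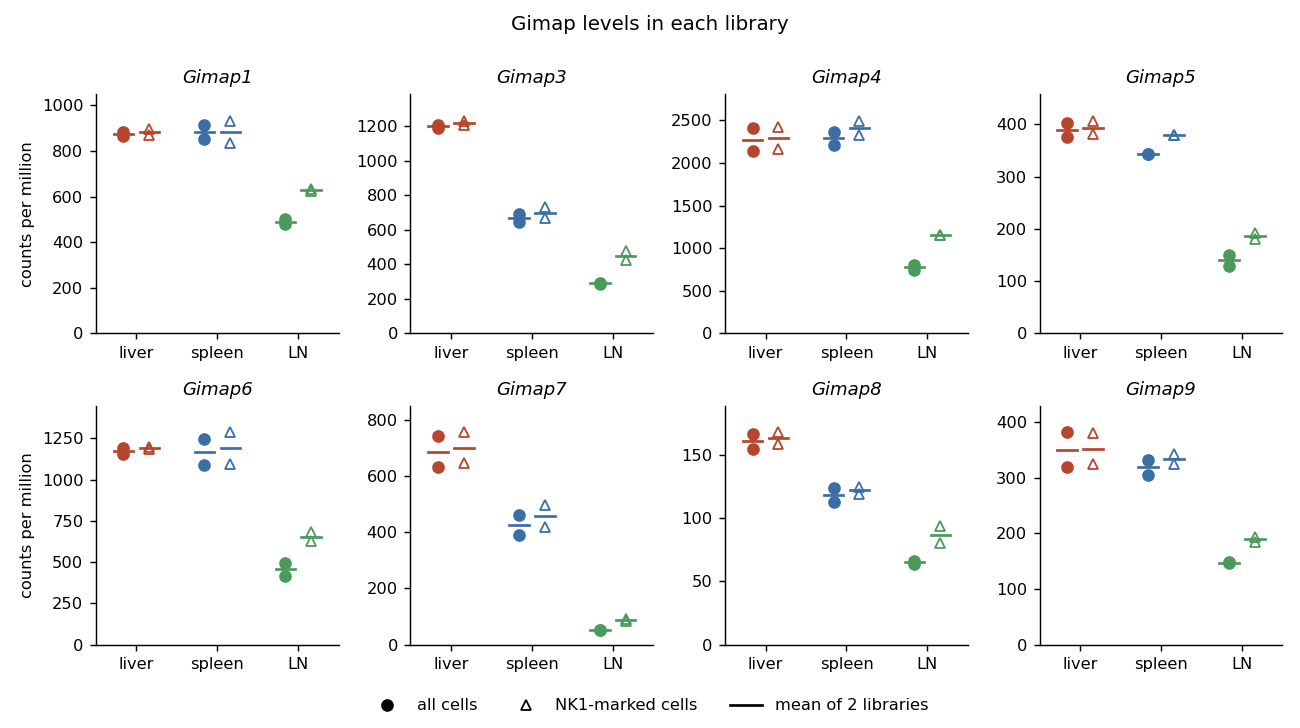
Each panel plots 1 Gimap gene, with organ on the x axis and CPM on the y axis from 0. Filled circles are libraries summed over all cells, open triangles the same libraries summed over NK1-marked cells, and bars the mean of 2 libraries. The LN libraries are lowest for every gene, and Gimap7 drops from 633 and 742 CPM in liver to 53.4 and 53.3 CPM in LN.

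Because the members were chosen on these organ differences, the fold changes describe them and nothing is inferred from their counts. All 8 members passed the filter on low counts in every comparison. Between liver and LN all 8 were called higher in liver, at a Benjamini-Hochberg adjusted p below 0.05 in edgeR's quasi-likelihood test, while 18.0% of the 10252 genes tested were called higher and 19.6% lower. Gimap7 differed most, 12.9-fold (log2 3.69 ± 0.14 SE), followed by Gimap3 (log2 2.06 ± 0.12), Gimap4 (1.56 ± 0.13) and Gimap5 (1.48 ± 0.12). Gimap6 (1.36 ± 0.13), Gimap8 (1.31 ± 0.12) and Gimap9 (1.25 ± 0.12) came next, and Gimap1 differed least (0.84 ± 0.12). The family's median log2 difference was 1.42, beside 0.01 over all genes tested.

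Between spleen and LN all 8 were again called higher in spleen, with 7.89% of genes called higher and 10.3% lower. Gimap7 was 7.97-fold higher (log2 3.00 ± 0.14), and the other members lay between 0.85 (Gimap1) and 1.57 (Gimap4). The family's median was 1.26, beside 0.00 over all genes. Both comparisons use the same LN libraries.

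Between liver and spleen 3 members were called. Gimap3 (log2 0.84 ± 0.12), Gimap7 (0.69 ± 0.12) and Gimap8 (0.44 ± 0.12) were called higher in liver, where 12.8% of genes were called higher and 13.1% lower. The other 5 ranged from -0.01 (Gimap1 and Gimap4) to 0.18 (Gimap5), and the family's median was 0.16, beside 0.02 over all genes. Gimap8 lost its call without the second spleen library (adjusted p = 0.0777) and with cells thinned to 1000 UMIs (log2 0.32, 0.0821). In both LN comparisons all 8 calls held under every alternative tried.

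Next, the organs were compared within NK1-marked cells, those with at least 1 UMI of Klrb1c (the NK1.1 receptor) or Il2rb (the IL-2 and IL-15 receptor chain), which mark iNKT1 cells. These made up 88.2% and 84.1% of liver cells, 46.6% and 38.5% of spleen cells and 20.5% and 18.2% of LN cells. Liver cells were deeper, and with every cell thinned to 1000 UMIs the marked shares were 50.4% and 53.1%, 31.1% and 25.5%, and 13.3% and 12.4% in the same order. In these cells Gimap7 stood at 647 and 758 CPM in liver, 496 and 420 CPM in spleen and 85.3 and 91.9 CPM in LN. Gimap3 stood at 1209 and 1232 CPM, 729 and 671 CPM and 424 and 478 CPM in the same order. Both genes kept the order of the whole libraries, and their LN values were higher than in all LN cells. Gimap1 stood at 898 and 870 CPM in liver, 932 and 835 CPM in spleen and 625 and 634 CPM in LN.

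Folds against LN were smaller in NK1-marked cells than in all cells for each member, and whether they differed from those in all cells was not tested. All 8 members were called higher in liver than in LN (9.61% of genes higher, 11.4% lower), with log2 differences from 0.49 (Gimap1) to 2.99 (Gimap7) and a median of 0.96 beside 0.01 over all genes. In spleen over LN 7 were called (2.22% of genes higher, 4.51% lower), from 0.49 (Gimap1) to 2.37 (Gimap7), and Gimap8 stood at 0.50 ± 0.18 without a call. In liver over spleen the same 3 members were called as in all cells (9.01% of genes higher, 8.55% lower), namely Gimap3 at 0.80 ± 0.12, Gimap7 at 0.61 ± 0.13 and Gimap8 at 0.42 ± 0.13. The call of Gimap7 there was lost without the second spleen library (0.0561), and that of Gimap8 without any 1 liver or spleen library, after thinning (0.153) and with DESeq2 (0.173). In spleen over LN, leaving out 1 library at a time left 5 to 7 calls, with Gimap1 lost without the first spleen library or either LN library (0.0813 to 0.167) and Gimap3 without the first LN library (0.0557). Thinning also ended both calls there (0.0788 for Gimap1 and 0.0727 for Gimap3). In liver over LN Gimap1 was lost without the first LN library (0.0575) and after thinning (0.0508).

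A stricter gate, cells with UMIs of both Klrb1c and Il2rb, held 1181 and 1123 cells in liver, 240 and 151 in spleen but only 50 and 51 in LN. There only Gimap3 (log2 1.08) and Gimap7 (2.27) were called higher in liver than in LN, and only Gimap7 (1.58) in spleen over LN. Gimap1 turned to -0.083 in liver over LN and -0.13 in spleen over LN, without a call, while Gimap4, Gimap5, Gimap6, Gimap8 and Gimap9 ranged from 0.40 to 0.66 in liver over LN. The LN sums behind these values were 10 and 8 UMIs for Gimap7, 65 and 51 UMIs for Gimap1 and 102 and 96 UMIs for Gimap4, whose liver over LN value moved from 1.00 in NK1-marked cells to 0.50. Sums this small widen the error of a fold, and whether the differences under the 2 gates differ was not tested.

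**Figure D2:**
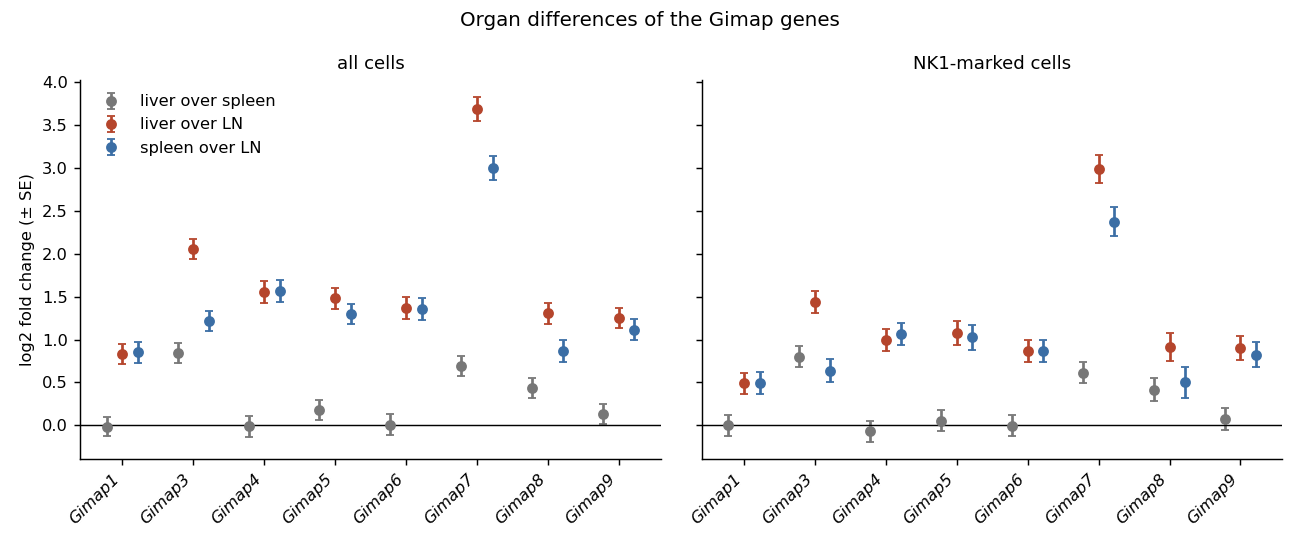
Log2 fold changes between organs (y axis) for the 8 members (x axis), with bars for the SE of the edgeR fit, in all cells and in NK1-marked cells. Gimap7 lies above all other members against LN, at 3.69 (liver) and 3.00 (spleen) in all cells, while liver over spleen lies near 0 for Gimap1, Gimap4 and Gimap6.

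Depth differs between organs, so the cells were also thinned to 1000 UMIs each, which left out 0 and 9 cells from liver, 144 and 169 from spleen and 265 and 488 from LN. After thinning, Gimap7 had at least 1 UMI in 35.3% and 41.1% of liver cells, 25.0% and 29.1% of spleen cells and a mean of 4.14% ± 0.34 (SD, n = 2) of LN cells. Gimap4 was found in 76.5% to 79.8% of liver cells, 78.3% of spleen cells in both libraries and 34.4% to 38.6% of LN cells. Gimap3 was found in 56.2% to 58.5%, 38.4% to 40.5% and 19.0% to 20.1% of cells in that order. These shares keep the order of the CPM values for all 3 genes. Without thinning Gimap7 was found in 72.8% and 71.9% of cells of the liver libraries, with means of 40.6% in spleen and 6.14% in LN. The means for Gimap4 were 97.1%, 90.9% and 48.4% in liver, spleen and LN.

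Counted per thinned cell, a mean of 3.23 to 3.44 different members were detected in liver, 2.95 to 3.11 in spleen and 1.44 ± 0.09 (SD, n = 2 libraries) in LN. At least 1 member was found in 98.6% to 98.9% of liver cells, 96.9% to 97.6% of spleen cells and 67.3% to 71.6% of LN cells (means without thinning 99.9%, 99.5% and 82.7%). At least 3 were found in 70.2% to 75.7%, 62.5% to 66.5% and 20.5% to 22.8% of cells. Fewer members were thus detected in an LN cell at 1000 UMIs, and no organ overlapped another in any of these counts. The 1000 UMIs include ribosomal and haemoglobin genes, which took 31.9% to 34.3% of UMIs in liver, 27.7% to 28.3% in spleen and 23.1% to 27.0% in LN. A cell type that should lack the family was not at hand to set a background. Few cells of any library carried 5 or more UMIs of B cell or myeloid genes, and mature B cells themselves need Gimap1.

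**Figure D3:**
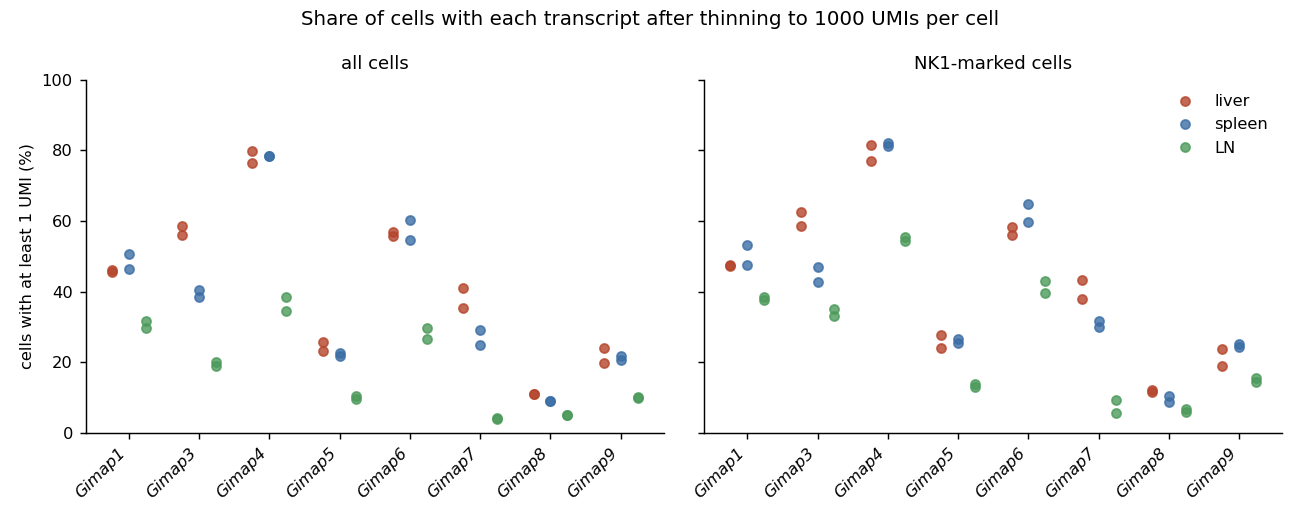
Share of cells with at least 1 UMI of each member (y axis, percent) after thinning to 1000 UMIs per cell, with each point 1 library, in all cells and in NK1-marked cells. LN points lie under those of liver and spleen for every member, and Gimap7 falls to a mean of 4.14% of LN cells.

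The remaining comparisons were made between cell groups inside each library, with the library as a block. First, NK1-marked cells were set against the unmarked cells of their own library. The organ contrasts that chose the members were made in all cells and in NK1-marked cells, so this comparison shares their values and is given as a description. Gimap5 was slightly higher in NK1-marked cells, from 365 and 383 to 379 and 406 CPM in liver, from 308 and 319 to 380 and 384 CPM in spleen and from 140 and 119 to 192 and 181 CPM in LN (log2 0.25 ± 0.05). Gimap7 went from 551 and 662 to 643 and 756 CPM, from 428 and 366 to 497 and 425 CPM and from 45.6 and 45.0 to 85.5 and 92.0 CPM (log2 0.28 ± 0.07). Both were higher in 6 of 6 libraries, and edgeR called these 2 beside 1.70% of genes called higher and 1.74% lower. The call of Gimap7 was lost without the first liver, first spleen or second spleen library, with all barcodes and without the 2% of cells with the most UMIs, and that of Gimap5 with DESeq2. Neither held without the library block. The other 6 members had log2 values from 0.16 (Gimap1 and Gimap9) to 0.30 (Gimap3) and were not called. Gimap3, Gimap4, Gimap6 and Gimap8 were higher in all 6 libraries, but the share of all genes that were so was not counted. Nothing is read from that number.

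The size of that difference was also estimated within each organ. These estimates rest on the organ differences by which the members were chosen, so they are descriptions. Gimap4 was 1.04-fold higher in NK1-marked than in unmarked cells of liver but 1.68-fold in LN, with spleen between (log2 0.16 ± 0.03). Gimap3 was 1.09-fold, 1.10-fold and 1.79-fold higher in liver, spleen and LN, and Gimap6 was 1.09-fold, 1.06-fold and 1.59-fold higher. Gimap7 gave 1.15-fold, 1.16-fold and 1.96-fold and Gimap1 1.04-fold, 1.02-fold and 1.37-fold. The gap was widest in LN for each of the 5. An interaction of cell group and organ was called by edgeR for these 5 members, beside 0.730% of all genes, and nothing is read from that count. The calls of Gimap1 and Gimap7 were lost with DESeq2 and without the second LN library, and that of Gimap7 also without the first and after thinning, where Gimap9 gained a call.

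**Figure D4:**
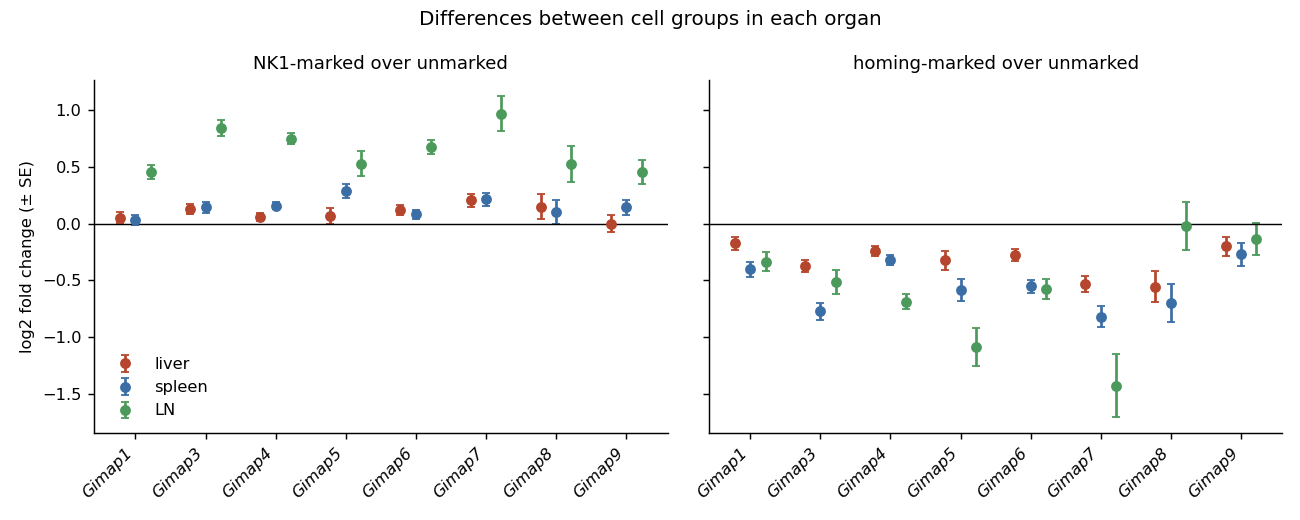
Log2 fold changes (y axis, bars are SE) of NK1-marked over unmarked cells and of homing-marked over unmarked cells, estimated within each organ, for the 8 members. The LN values of the NK1 comparison lie between 0.45 (Gimap1 and Gimap9) and 0.97 (Gimap7), above the values of liver and spleen for every member.

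Homing-marked cells, with at least 1 UMI of Ccr7 (a chemokine receptor for entry into LN) or S1pr1 (a receptor for leaving tissue), were compared with the other cells of the library. There were 195 and 173 such cells from liver, 247 and 245 from spleen and 256 and 241 from LN. All 8 members were lower in homing-marked cells and passed the test, beside 3.59% of genes called lower and 4.30% higher, with a family median of -0.47 beside -0.01 over all genes. These are shares of the UMIs, and homing-marked cells were deeper, with median UMIs of 4290 against 3552 in the first liver library and 2479 against 1687 in the first spleen library. Counted per cell, family UMIs averaged 20.0 and 17.3 in homing-marked against 18.2 and 15.8 in unmarked liver cells, 10.1 and 8.42 against 9.05 and 7.74 in spleen and 3.03 and 2.79 against 3.55 and 2.98 in LN, so the count per cell was higher in 4 libraries and lower only in LN. In the homing comparison without thinning Klf2, a transcription factor of resting T cells, was higher (log2 1.42 ± 0.23, edgeR adjusted p = 0.0210). As shares of the UMIs, the family and Klf2 therefore moved in opposite directions.

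Gimap7 showed the widest difference, at 440 and 555 CPM in homing-marked against 664 and 766 CPM in unmarked liver cells, 267 and 246 against 492 and 412 CPM in spleen and 20.5 and 22.8 against 58.6 and 57.5 CPM in LN (log2 -0.69 ± 0.07, edgeR adjusted p = 5.32e-11). Gimap5 stood at 303 and 341 against 390 and 412 CPM, 227 and 254 against 360 and 358 CPM and 70.5 and 71.0 against 162 and 138 CPM (log2 -0.54 ± 0.08, adjusted p = 2.08e-06). Neither gene overlapped between the groups within any organ. Gimap3 fell by 0.54, Gimap8 by 0.49, Gimap6 by 0.45 and Gimap4 by 0.38 on the log2 scale, each in 6 of 6 libraries. Gimap1 fell by 0.30, also in all 6, and Gimap9 by 0.21 in 5 of 6 (edgeR adjusted p = 0.0232), a call lost without the first liver or second spleen library (0.0670 and 0.122). The call of Gimap9 was also lost with DESeq2 (0.290), without TMM (0.0510), without the 2% of cells with the most UMIs (0.160) and without the library block (0.176). With cells thinned to 1000 UMIs before marking, 5 members were called and Gimap5 (log2 -0.46), Gimap8 (-0.25) and Gimap9 (-0.20) were not, of which Gimap5 and Gimap9 stayed near their values without thinning.

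By organ, again as a description, Gimap4 fell in homing-marked cells by 0.24 in liver, 0.32 in spleen and 0.69 in LN on the log2 scale, and Gimap3 by 0.38, 0.77 and 0.52. The gap was widest in LN for Gimap4 and in spleen for Gimap3. Gimap8 stood at -0.56 ± 0.13 in liver and -0.70 ± 0.17 in spleen but at -0.02 ± 0.21 in LN, near 0. Its interaction with organ was not called (edgeR adjusted p = 0.593). Gimap7 stood at -0.53, -0.82 and -1.43 and Gimap5 at -0.32, -0.58 and -1.09 in liver, spleen and LN, and neither interaction was called. The interaction with organ was called by edgeR for Gimap3 and Gimap4, beside 1.05% of genes. The call of Gimap3 was lost without the second liver, first spleen or second spleen library and without the 2% of cells with the most UMIs, and that of Gimap4 without the second LN library. Neither call held with DESeq2 or after thinning.

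Cycling-marked cells, with at least 2 UMIs over Mki67, Top2a, Birc5, Ube2c, Cdk1 and Ccna2, were compared with cells that had none. There were 156 and 170 such cells from liver, 52 and 81 from spleen and 54 and 63 from LN. Their median depth was above that of the other cells, for example 6403 against 3498 UMIs in the first liver library. All 8 members were called lower, beside 16.2% of genes called lower and 16.4% higher, with a family median of -0.66 beside -0.08 over all genes. These are shares of the UMIs. Counted per cell, the mean of family UMIs was 26.6 and 26.0 for cycling-marked against 18.3 and 15.9 for all cells of the liver libraries. It was 16.6 and 13.3 against 9.15 and 7.81 for spleen, and 6.15 and 5.67 against 3.50 and 2.96 for LN, so without thinning the count per cell went the other way in all 6 libraries. Gimap3 changed most, at 717 and 691 against 1270 and 1294 CPM in liver, 333 and 276 against 709 and 694 CPM in spleen and 130 and 97.8 against 302 and 298 CPM in LN (log2 -1.05 ± 0.08, edgeR adjusted p = 2.91e-25). Gimap3 did not overlap between the groups in any organ. Gimap8 fell by 0.90, Gimap6 and Gimap1 by 0.69, Gimap5 by 0.64, Gimap4 by 0.42 and Gimap9 by 0.35 on the log2 scale in 6 of 6 libraries. Gimap7 fell by 0.60 in 5 of 6, since in the second LN library it stood at 68.0 CPM in cycling-marked and 50.2 CPM in other cells. The call of Gimap9 was lost without the 2% of cells with the most UMIs (0.137). With cells thinned to 1000 UMIs the differences were larger, at log2 -1.38 for Gimap1, -1.13 for Gimap5, -0.89 for Gimap9 and -0.80 for Gimap4. Family UMIs per thinned cell averaged 3.71 and 3.74 for cycling-marked against 4.96 and 5.33 for all cells of liver. They averaged 3.04 and 2.63 against 4.93 and 4.55 for spleen and 1.37 and 1.67 against 2.04 and 1.87 for LN, lower in every library.

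Cells with a UMI of Nr4a1, Egr1 or Egr2, genes induced by signals through the T cell receptor, showed small differences. Gimap3 (log2 -0.30 ± 0.05), Gimap7 (-0.28 ± 0.06) and Gimap1 (-0.17 ± 0.05) were called lower, each in 6 of 6 libraries, beside 0.796% of genes called lower and 1.10% higher. Gimap3 stood at 1035 and 1034 against 1221 and 1247 CPM in liver, 671 and 489 against 699 and 659 CPM in spleen and 228 and 220 against 310 and 307 CPM in LN. These too are shares of the UMIs. Counted per cell, marked liver cells averaged 19.6 and 17.7 family UMIs, marked spleen cells 10.6 and 8.42 and marked LN cells 4.00 and 2.92, above the mean of all cells in each library but the second of LN. Without thinning the other 5 members ranged from log2 -0.20 (Gimap9) to 0.02 (Gimap5) without a call. Gimap4 gained a call as lower in 5 alternatives (0.00187 to 0.0278). The call of Gimap1 was lost without either LN library (0.136 and 0.164) and without TMM (0.0800). The calls of Gimap1 and Gimap7 were lost with DESeq2, without the 2% of cells with the most UMIs and without the library block (0.118 to 0.640), and none of the 3 was kept after thinning, at log2 -0.42 for Gimap7, -0.20 for Gimap1 and -0.15 for Gimap3.

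**Figure D5:**
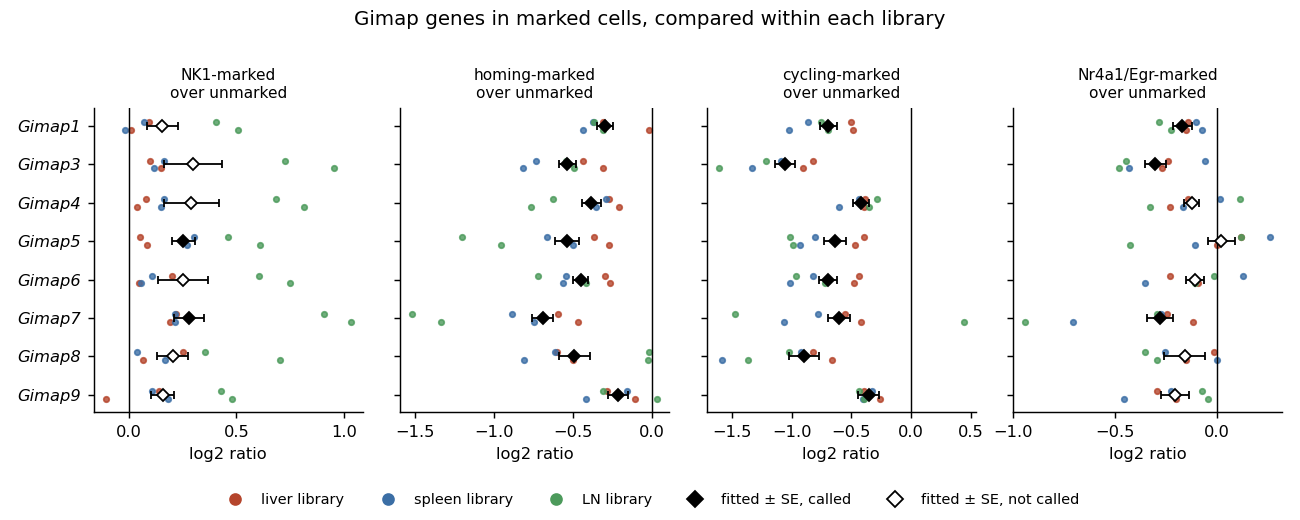
Log2 ratios (x axis) of the 8 members (1 row each on the y axis) between cell groups of the same library in 4 comparisons, with each dot 1 library and diamonds the fitted value with its SE, filled where the adjusted p was below 0.05. In the homing and cycling comparisons the diamonds lie left of 0 for every member, from -0.69 to -0.21 and from -1.05 to -0.35.

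Genes near the cluster were examined next, because the family sits in 1 block. Within 250 kb on either side the tables list 25 further genes, of which 9 passed the filter on low counts in all cells. Of these 3 were called higher and 2 lower in liver over LN (18.0% and 19.6% of all genes). In spleen over LN 2 were called higher and 2 lower (7.89% and 10.3%), and in liver over spleen 3 and 0 (12.8% and 13.1%). Tmem176b and Tmem176a, a pair of membrane protein genes beyond Gimap3, stood at 113 and 138 CPM and 87.1 and 117 CPM in liver, 29.9 and 28.4 CPM and 36.1 and 25.8 CPM in spleen, and 234 and 232 CPM and 267 and 261 CPM in LN. In all cells they were highest in LN and lowest in spleen, unlike any Gimap gene. Within NK1-marked cells Tmem176b overlapped between liver (118 and 139 CPM) and LN (157 and 113 CPM), without a call (log2 -0.08 ± 0.16). Tmem176a was still called lower there in liver than in LN (-0.62 ± 0.18). In cycling-marked over unmarked cells both fell in 6 of 6 libraries, by 1.26 on the log2 scale for Tmem176b (SE 0.16, edgeR adjusted p = 7.62e-09) and by 1.02 for Tmem176a (SE 0.14, 8.96e-10), the same direction as the Gimap genes. In NK1-marked over unmarked cells they were lower in 4 and 5 of 6 libraries without a call (log2 -0.40 ± 0.24 and -0.48 ± 0.17). Tmem176b was also called lower in homing-marked cells (-0.46 ± 0.10, edgeR adjusted p = 0.000869, 5 of 6 libraries) and in Nr4a1/Egr-marked cells (-0.35 ± 0.09, 0.00971, 4 of 6 libraries), while Tmem176a was not (-0.18 ± 0.10 and -0.27 ± 0.09). The non-coding gene 4833403J16Rik, between Gimap5 and Gimap3, was also lowest in LN, at 20.7 and 19.1 CPM in liver, 24.9 and 30.2 CPM in spleen and 12.5 and 7.15 CPM in LN. The others called higher in liver than in LN were AI854703, at 11.7 and 9.54 CPM in liver, 7.27 and 8.33 CPM in spleen and 2.17 and 7.15 CPM in LN, and the read-through model Gm28053, at 3.87 and 3.72, 4.15 and 6.03, and 0.542 and 0.825 CPM, on 2 and 3 UMIs in LN.

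Likeness was described over 12 sums, the 6 libraries each split into NK1-marked and unmarked cells. The members were chosen for organ differences and each is part of the family sum, so high values among them were set by that choice. Pearson's r of log2 CPM with the summed family ran from 0.94 (Gimap3) to 0.99 (Gimap1, Gimap4, Gimap5, Gimap6, Gimap7 and Gimap9), and between pairs of members from 0.889 (Gimap3 and Gimap6) to 0.996 (Gimap1 and Gimap6). Among 3311 other genes with a mean of at least 50 CPM, the most alike were Asb2 (r = 0.99), a subunit of a ubiquitin ligase, Acot7 (0.98), an acyl-CoA thioesterase, Ifit1bl1 (0.98), Cd226 (0.98), an activating receptor of NK and T cells, and Cxcr3 (0.98), a chemokine receptor. Asb2 stood at 159 and 166 CPM in liver, 160 and 142 CPM in spleen and 39.1 and 34.1 CPM in LN. Il7r, the IL-7 receptor, stood at -0.89, Tcf7 at -0.79, Bcl2 at 0.66 and Klf2 at 0.35. The sums share libraries and depth, and these values are descriptions.

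Of the genes of T cell survival and quiescence, 25 were followed, and calls went in both directions. In cycling-marked cells 3 were called higher and 12 lower (16.4% and 16.2% of all genes), with a median of -0.36 beside -0.08 over all genes. Bcl2, an anti-apoptotic protein of mitochondria, fell there by 1.69 on the log2 scale and Pik3ip1, an inhibitor of PI3K signalling, by 1.67, each in 6 of 6 libraries. In homing-marked cells 5 were higher and 6 lower of 23 tested (4.30% and 3.59% of all genes). There Bcl2l11, which encodes the pro-apoptotic protein Bim, fell by 1.00 in 6 of 6 libraries. Bcl2 was also called lower there, in 6 of 6 libraries (log2 -0.87). In NK1-marked over unmarked cells 1 was higher and 5 lower (1.70% and 1.74%), and the 1 that was higher was Bcl2 (log2 0.54 ± 0.09, 6 of 6 libraries). In liver over spleen 8 were called higher and 10 lower (12.8% and 13.1%), and Bcl2, at 756 and 506 CPM in liver against 88.5 and 95.0 CPM in spleen, differed far more than any Gimap gene (log2 2.78 ± 0.16). In liver over LN 8 were higher and 8 lower (18.0% and 19.6%), in spleen over LN 4 and 7 (7.89% and 10.3%), and in Nr4a1/Egr-marked cells 0 and 3 (1.10% and 0.796%).

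Of 14 genes of autophagy and the lysosome, 3 were called higher and 2 lower in liver over spleen (12.8% and 13.1% of all genes), 5 and 5 in liver over LN (18.0% and 19.6%) and 1 and 4 in spleen over LN (7.89% and 10.3%). The GABARAP relatives, to which the partner of Gimap6 belongs, went different ways. Gabarapl2 stood at 578 and 633 CPM in liver, 698 and 696 CPM in spleen and 428 and 451 CPM in LN, and was called higher in spleen than in LN (log2 0.66 ± 0.12), the same direction as Gimap6. Gabarapl1 stood at 11.2 and 10.0 CPM in liver, 1.30 and 0.574 CPM in spleen (5 and 2 UMIs) and 5.15 and 6.60 CPM in LN, and was called lower in spleen than in LN (-2.59 ± 0.51), the opposite direction. Map1lc3a, an LC3 gene of the autophagosome membrane, was also lower in spleen than in LN (-0.67 ± 0.20). Ctsd, the lysosomal protease cathepsin D, fell by 0.33 on the log2 scale in homing-marked cells, as the Gimap genes did, and stood at 0.25 ± 0.04 in NK1-marked over unmarked cells. In the within-library comparisons the list gave 0 higher and 2 lower in homing-marked, 0 and 7 in cycling-marked, 1 and 0 in NK1-marked and 0 and 0 in Nr4a1/Egr-marked cells, beside the shares of all genes given above for each.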

How the data were processed

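Liver, spleen and LN iNKT cells were measured in 6 libraries (10x Genomics Chromium 3′ v2), grouped by organ from the labels. Per the submitters' processing notes and the study's methods, the authors used Cell Ranger 3.1.0 with mm10. The deposited matrices hold raw UMI counts per gene and barcode, and the deposited gene and barcode lists hold other values, namely identifiers. Nuclear RNA is the molecule named in the labels, although whole cells were sorted. The gene annotation version is not given in the sources used here, so locations came from GENCODE vM21 by identifier (98.7% of genes found).

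Barcodes were kept at 300 to 4000 genes and at most 15% mitochondrial UMIs (55 failed), and 109 ribosomal protein and haemoglobin genes (23.1% to 34.3% of UMIs) were set aside. No doublet caller was run. The alternative without the 2% of cells with the most UMIs stands in for one. UMIs were summed per library and cell group and tested in R 4.3.3 with the quasi-likelihood F test of edgeR 4.0.16 (genes filtered by filterByExpr at a minimum count of 10, TMM, robust glmQLFit). Organs shared 1 fit. Marked cells were compared with library as a block, leaving out the marking genes and libraries with under 10 cells in a group, and organ interactions were tested in the same design. P-values were adjusted over all genes tested by Benjamini-Hochberg, with calls below 0.05. DESeq2 1.42.0 was an alternative, besides other normalization, filters, thinning to 1000 UMIs, blocks and left-out libraries. The test was checked on simulated data with the same set dispersion for every gene and no effect shared by the sums of a library. Only well-counted genes were changed, so the rates hold for that setting. In liver over spleen the test recovered 43% of genes changed 1.5-fold and 97% of those changed 2-fold, and in the homing comparison 75% and 96%, while 4.11% and 6.04% of the calls were false.

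The members, the gene lists and the cell markers were chosen with earlier results of these data known. Named genes were all 8 members, genes within 250 kb, up to 3 called genes with the largest fold per list (a gene named in 1 comparison may be followed in others), and the 5 genes most alike the summed family with a mean of at least 50 CPM. The likeness of Bcl2, Il7r, Tcf7 and Klf2 to the family was added after values were seen. A planned comparison of cell groups and 1 gene of a list are not reported here. Trac and Trbc2 were not among the genes matched, so 5 of 7 T cell markers were used. Protein sequences were not used here. Replicate numbers were not used to pair the libraries, and the labels do not say whether same-numbered libraries share mice.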

Additional observations from a re-analysis of the deposited data

How the results depend on the processing

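Results are counts of the 8 members called. In all cells, 8 were called against LN under each of the 14 alternatives for liver and for spleen, and 2 or 3 in liver over spleen. In NK1-marked cells the gate with both Klrb1c and Il2rb left 2 in liver over LN and 1 in spleen over LN, and reversed Gimap1 (log2 -0.0834 and -0.131). Leaving out 1 library at a time gave 1 to 3 in liver over spleen (main 3). For NK1-marked over unmarked cells (main 2), DESeq2, all barcodes and omitting the 2% of cells with the most UMIs gave 1, no filter gave 5, no library block gave 0, and leaving out libraries 1 to 3. For homing-marked cells (main 8) thinning gave 5, and 7 of the 14 alternatives kept 8. For Nr4a1/Egr-marked cells (main 3) DESeq2, omitting those 2% of cells and no library block gave 1 and thinning 0. The organ difference of NK1-marked cells (main 5) was called for 3 with DESeq2, for 3 to 5 with libraries left out and for 5 after thinning, with Gimap9 in place of Gimap7, and that of homing-marked cells (main 2) for 0 with DESeq2 or thinning, 1 without those 2% of cells and 1 to 2 with libraries left out. The causes were not tested. For cycling-marked cells every alternative gave 7 or 8 calls, with larger differences after thinning (Gimap1 -1.38 against -0.69).

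Deviations of same-numbered libraries correlated weakly (0.0991, 0.0832 and 0.0753 over 10252 genes). With 2 libraries per organ these values cannot show whether such libraries share mice. With a replicate block the counts were 3, 8 and 8 in all cells and 3, 8 and 8 in NK1-marked cells, where Gimap8 gained a call in spleen over LN.

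With n = 2 per organ, spreads rest on 6 libraries. The sums are thinnest for cycling-marked cells of spleen (52 and 81 cells) and LN (54 and 63) and for LN cells with both marker genes. UMI counts carry counting error, and changes of 1.5-fold were recovered less often than those of 2-fold on simulated data.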
